A study of Mus musculus with 40 samples.

Results

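Mouse quadriceps was compared at the end of an exhausting treadmill run and 3 h into recovery from it, in sessions that began when the lights went off. The comparison rests on 6 of the 40 messenger RNA libraries of the series: the 3 sampled directly after the run that started at ZT12 (the +0h group, taken at ZT12.5) and the 3 sampled 3 h later (the +3h group, taken at ZT15.5). ZT is zeitgeber time, hours counted from lights on, so ZT12 is the start of the dark, active phase of a mouse. The animals were C57BL/6 mice, and the labels call their quadriceps glycolytic; sex and age were not given in the sources used here. Further groups of 3 quadriceps libraries each were used beside them: sedentary mice at ZT12 and at ZT16, whose difference is the passage of nearly the same hours without a run, and mice run in a session starting at ZT0 (lights on) and sampled at ZT0.5 and ZT3.5. No deletion or transgene was given for any of these groups. Each library carries its own tag and was read as a separate animal, so a change from 0 to 3 h is a difference between 3 mice and another 3 mice. A p-value sets this difference against the spread between libraries of a group, which was estimated from all 24 quadriceps libraries. The clock times of the sedentary and the run groups were close but not identical.

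Exhausting contraction raises calcium, depletes energy stores and strains the fibre, and these signals switch on immediate early genes, transcription factors such as Fos and Egr1 whose transcripts appear within minutes and decay fast. A slower wave follows, in which the coactivator PGC-1 alpha (Ppargc1a), genes of fatty acid use, ubiquitin ligases and angiogenic factors are transcribed while the muscle refills its stores. Skeletal muscle also runs a circadian clock, a loop in which the activators Arntl (BMAL1) and Clock drive their own repressors of the Per, Cry and Nr1d families, so transcript levels move over 3 h without any exercise.

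The 6 libraries held 51739106 to 61966834 estimated counts each, and the 24 quadriceps libraries 27353187 to 79491550. Levels are given as CPM (counts scaled to a common library size), corrected for composition by the trimmed mean of M-values. A CPM compares one gene between libraries and not one gene with another, since it is not divided by length. A gene was called where the adjusted p (edgeR's quasi-likelihood test, Benjamini-Hochberg over all 15097 genes tested) was under 0.05, and every log2 change is the +3h group minus the +0h group unless said otherwise. The label of the tissue fitted its markers, since the 10 muscle fibre markers together made up 226500 to 230800 CPM at +0h and 203000 to 226300 CPM at +3h. Counts of the mitochondrial genome took 9.17 to 9.33% of each +0h library and 11.3 to 13.2% of each +3h library, against 9.93 to 11.3% in sedentary mice at ZT12 and 11.7 to 12.3% at ZT16.

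Between the end of the run and 3 h later, 1099 genes rose and 1279 fell, which is 15.8% of the genes tested (7.28% raised and 8.47% lowered). Of these, 323 rose and 211 fell at least 2-fold, and 65 rose and 56 fell at least 4-fold. The median log2 change of all genes tested was 0.0044. The 3 libraries of one group lay wholly above or below those of the other for 4966 genes, 32.9% of those tested, and this held for 2309 of the 2378 called. Groups that did not overlap were thus the rule among called genes. Where stated of a called gene below, this describes its values and does not set it apart. Ranks below are of called genes whose groups did not overlap and whose mean log2 CPM was 1 or more. By these limits the largest falls were mostly of immediate early genes and their feedback regulators, and the largest rise was of Ppargc1a.

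**Figure D1:**
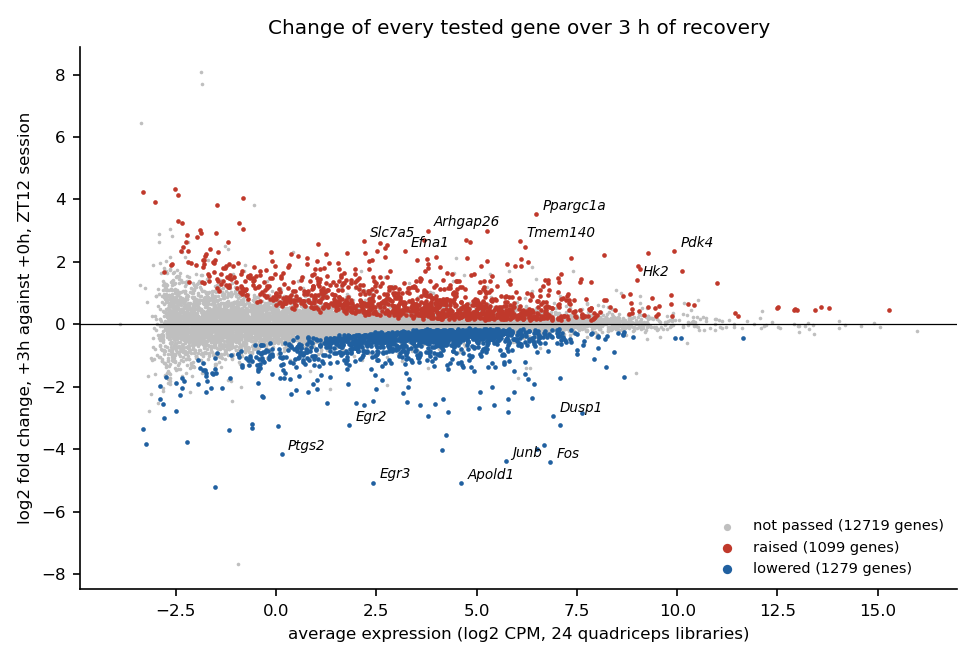
Every tested gene by its mean level over the quadriceps libraries (x axis, log2 CPM) and its log2 change from +0h to +3h after the ZT12 session (y axis); coloured points are the 1099 raised and 1279 lowered genes, grey points the rest. The lowest named points are Apold1 and Egr3 and the highest named point is Ppargc1a.

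The steepest fall by these limits was that of Apold1 (gene 381823, chr6:134982001-134986836), which encodes a vascular regulator made by endothelial cells. Its level was 73.2, 72.4 and 109.6 CPM in the 3 libraries at +0h and 2.35, 2.48 and 2.64 CPM at +3h, a log2 change of -5.09 ± 0.55 (SE), adjusted p = 7.35e-06. The groups were far apart, and the +3h libraries also lay below the sedentary ones at ZT16, which held 5.3, 7.75 and 19.4 CPM. Fos (gene 14281, chr12:85473890-85477274), a subunit of the AP-1 transcription factor, went from 297, 241 and 544 CPM to 11.2, 18.1 and 21.3 CPM (-4.41 ± 0.96 (SE), adjusted p = 0.00424). Its level at +0h was highest in replicate 3, and every +3h library was below the sedentary ZT16 libraries at 28.5, 42.8 and 99.3 CPM. Junb (gene 16477, chr8:84976909-84978748), another AP-1 subunit, stood at 204, 218 and 199.9 CPM and then at 11.7, 8.26 and 9.65 CPM (-4.39 ± 0.49 (SE), adjusted p = 1.15e-05). Its +0h libraries were close together, and its +3h libraries lay in the range of the sedentary ZT16 libraries, 4.75, 5.65 and 18.8 CPM.

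Other immediate early factors fell with them. Egr3, a zinc finger factor of the EGR family, fell from 10.6, 10.8 and 29 CPM to 0.541, 0.461 and 0.492 CPM (-5.07 ± 0.69 (SE), adjusted p = 6.19e-05), with replicate 3 of +0h nearly 3 times as high as the rest. Fosb, a further AP-1 subunit, fell from 60.5, 46 and 66.7 CPM to 1.75, 3.27 and 5.61 CPM (-4.01 ± 0.85 (SE), adjusted p = 0.00359). Nr4a2, an orphan nuclear receptor, fell from 70.3, 65.4 and 31.6 CPM to 4.29, 4.51 and 5.5 CPM (-3.55 ± 0.71 (SE), adjusted p = 0.00233). In each of these 3 genes the lowest +0h library exceeded the highest +3h library more than 5-fold. Egr1, the best known member of the EGR family, stood at 168, 159 and 678 CPM and then at 8.2, 21.3 and 39.3 CPM (-3.86 ± 0.99 (SE), adjusted p = 0.013). The size of this fall rested on replicate 3 of +0h: without it the change was -2.83, adjusted p = 0.066. The call was also lost without replicate 1 of +3h (-3.46, adjusted p = 0.0541), without replicate 2 of +3h (-3.81, adjusted p = 0.056), and in a fit to the 6 libraries alone (-3.87, adjusted p = 0.0798).

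Of 29 measured genes on a list of immediate early transcription factors, 16 fell and 1 rose, with a median log2 change of -1.61, against 8.47% of all genes lowered and 7.28% raised. The count of falls lay between 15 and 17 whichever of the 6 libraries was left out. Besides those above, Egr2 (-3.22), Ier2 (-2.94), Fosl2 (-2.81), Klf4 (-2.39), Arc (-2.20), Klf2 (-2.16), Nr4a1 (-1.68), Ier5l (-1.61), Jund (-1.37) and Srf (-0.39) fell. The call of Ier2 was lost in the fit to the 6 libraries alone (-2.94, adjusted p = 0.0631). Klf4, a zinc finger factor, was at 146, 145 and 121 CPM and then 22.4, 28.9 and 27.4 CPM, so that the +3h libraries lay close together and well below every +0h library. Nr4a1, an orphan nuclear receptor, was at 1059, 892 and 893 CPM and then 222, 279.5 and 386 CPM, the second set overlapping the sedentary ZT16 libraries at 186, 234 and 387 CPM. The gene that rose was Mafk (0.73, adjusted p = 0.03), a small Maf protein, and no rise was counted when replicate 2 or 3 of either group was left out. The other 12 genes of the list were not called, among them Jun (-0.51, adjusted p = 0.415) and Atf3 (0.05, adjusted p = 0.978). Atf3 was still above sedentary mice at ZT16 in the +3h group (2.52, adjusted p = 0.0162).

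Nr4a3 (gene 18124, chr4:48045078-48086447), the third receptor of the Nr4a family, differed from Nr4a1 and Nr4a2 in its values. It stood at 82.3, 58.8 and 32.9 CPM at +0h and at 134, 221 and 213 CPM at +3h, with all 3 later libraries above all 3 earlier ones, against 3.33, 6.28 and 19.8 CPM in sedentary mice at ZT16. The log2 change of 1.70 ± 0.64 (SE), adjusted p = 0.0823 did not pass the test, while DESeq2 called it with an adjusted p of 0.0489. Each of its +3h libraries was more than 6 times as high as any sedentary library at ZT16 (4.27, adjusted p = 0.000553 for +3h against sedentary ZT16), whereas Nr4a1 and Nr4a2 had values of 0.14, adjusted p = 0.802 and -0.56, adjusted p = 0.648 in that comparison.

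**Figure D2:**
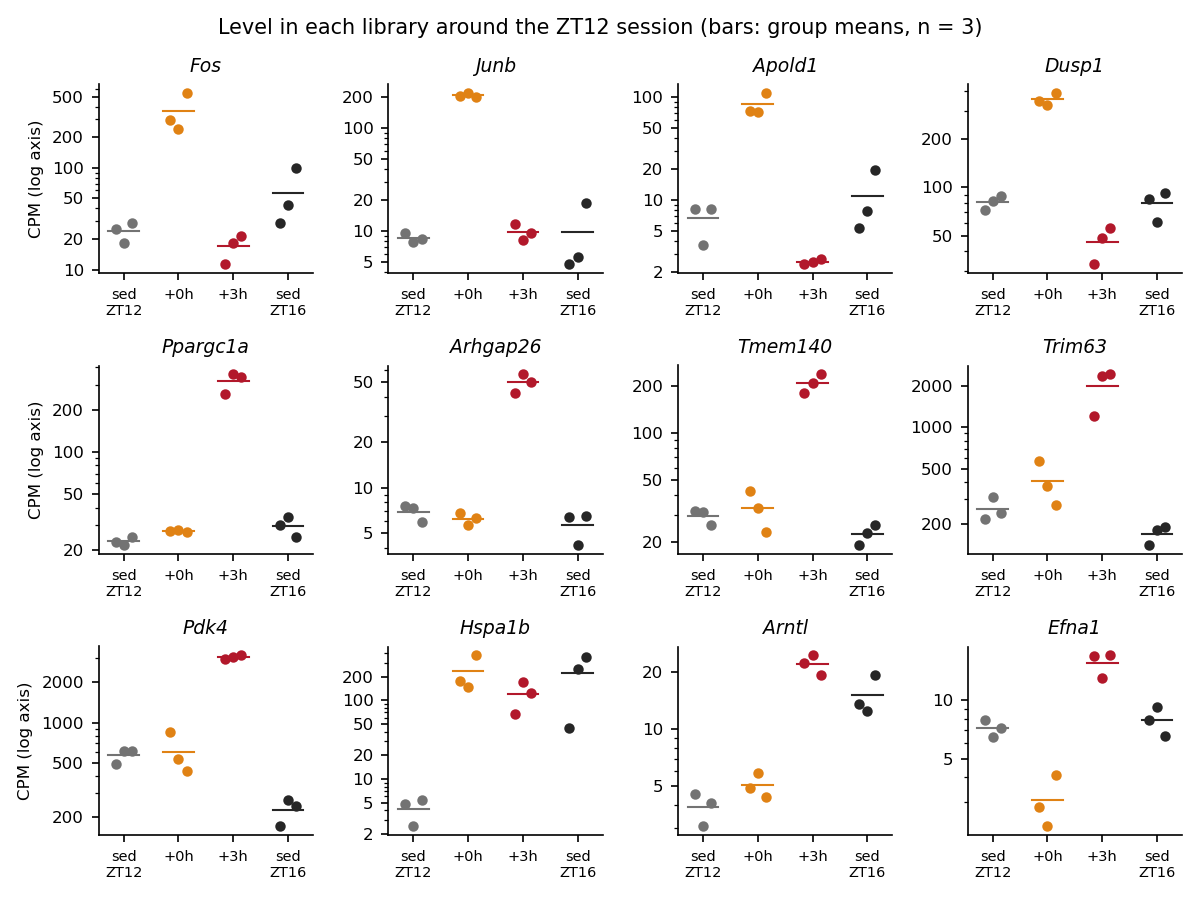
CPM on a log axis in each library of 4 groups (sedentary ZT12, +0h, +3h and sedentary ZT16, 3 libraries each), 1 panel a gene, with a bar at the group mean. Fos, Junb, Apold1 and Dusp1 are high only at +0h among the 4 groups, Ppargc1a, Arhgap26, Tmem140, Trim63, Pdk4 and Efna1 are highest at +3h, Arntl is raised at +3h and at sedentary ZT16, and Hspa1b is high everywhere but sedentary ZT12.

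Genes that shut signalling or mRNAs down fell with them. Dusp1 (gene 19252, chr17:26505591-26508472), a phosphatase that switches off MAP kinases, was at 346, 327 and 388 CPM and then 33.1, 48.2 and 55.7 CPM (-2.95 ± 0.31 (SE), adjusted p = 5.13e-06). Btg2, an antiproliferative factor that promotes deadenylation, was at 538, 457 and 469.6 CPM and then 27.2, 65.1 and 62.7 CPM (-3.24 ± 0.57 (SE), adjusted p = 0.000784). Both genes' groups were far apart, and replicate 1 of +3h was the lowest of the 6 in each. Zfp36, which binds AU-rich elements and speeds mRNA decay, was at 122, 118 and 165 CPM and then 10.7, 31.7 and 24.5 CPM (-2.60 ± 0.34 (SE), adjusted p = 4.11e-05), and Spry4, an inhibitor of receptor tyrosine kinase signalling, at 18.6, 22.3 and 20.2 CPM and then 5.45, 4.49 and 5.31 CPM (-2.003 ± 0.20 (SE), adjusted p = 1.2e-06).

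On the list of feedback and mRNA decay regulators, 8 of 25 genes fell and 3 rose, with a median of -0.46, against 8.47% of all genes lowered and 7.28% raised. The other falls were of Errfi1 (-2.36), Sik1 (-1.61), Zfp36l1 (-1.03) and Dusp8 (-0.58). The call of Zfp36l1 was lost without replicate 3 of +0h. That of Dusp8 was lost without replicate 2 of +0h or replicate 1 or 2 of +3h. The 3 rises were all of dual-specificity phosphatases of the same family as Dusp1: Dusp2 (2.19, adjusted p = 5.75e-05), Dusp4 (1.22, adjusted p = 0.0478) and Dusp6 (0.74, adjusted p = 0.00225). The call of Dusp4 was lost in 5 of the 6 fits that leave out a library, all but that without replicate 1 of +0h, at values of 1.04 to 1.49 over the 6. Dusp2 was at 0.572, 0.686 and 0.743 CPM at +0h and 1.25, 3.27 and 4.57 CPM at +3h, low values throughout, of which all 3 at +3h were above all 3 at +0h. Ptgs2, the inducible cyclooxygenase, dropped from 3.17, 3.8 and 7.05 CPM to 0.25, 0.22 and 0.299 CPM (-4.17 ± 0.61 (SE), adjusted p = 9.55e-05) and Thbs1, a matrix glycoprotein that inhibits angiogenesis, from 166, 106 and 134 CPM to 29.2, 34.1 and 26.5 CPM (-2.18, adjusted p = 0.00084).

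The rise of Ppargc1a (gene 19017, chr5:51454249-52115853) had the smallest adjusted p of the genes named here. This coactivator of nuclear receptors drives mitochondrial and fatty acid oxidation genes. It stood at 27.4, 27.8 and 27 CPM at +0h, which was close to the sedentary libraries at ZT12 (22.8, 21.5 and 24.5 CPM), and at 258, 358 and 342 CPM at +3h, a log2 change of 3.54 ± 0.12 (SE), adjusted p = 9.24e-14. All 3 libraries at +3h were more than 9 times as high as any at +0h, and sedentary mice at ZT16 held 30.1, 34.1 and 24.6 CPM. Of 22 genes on the PGC-1 and nuclear receptor list, 3 rose and 1 fell (median 0.15), a share near the 15.8% of all genes called. In the fit to the 6 libraries alone 5 rose. In sedentary mice 6 of the 22 rose from ZT12 to ZT16 and 0 fell (median 0.13). Of the 4 called in recovery, 3 were called in the same direction in sedentary mice. Beyond the passage of time 1 was more positive and 1 more negative (median -0.03). Ppard, the fatty acid sensing receptor PPAR delta, went from 35.6, 30.3 and 30.0 CPM to 52, 57.2 and 52 CPM (0.75, adjusted p = 1.08e-05). Ppargc1b, the closest relative of Ppargc1a, moved the other way, from 9.97, 8.41 and 9.96 CPM to 4.54, 5.41 and 6.03 CPM (-0.82, adjusted p = 0.0121), a call lost without replicate 1 of +3h (-0.72, adjusted p = 0.0559).

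Among the other largest rises by the same limits were Arhgap26, a GTPase activating protein, from 6.79, 5.63 and 6.3 CPM to 42.6, 56.7 and 50.6 CPM (3.00 ± 0.23 (SE), adjusted p = 7.04e-08), and Tmem140, a membrane protein, from 42.4, 33.2 and 23.4 CPM to 180.2, 208 and 238 CPM (2.66 ± 0.20 (SE), adjusted p = 6.5e-08). That their groups did not overlap was required by these limits. The sedentary libraries at ZT16 held 6.46, 4.15 and 6.51 CPM and 19.1, 23 and 25.6 CPM. Trp63, a transcription factor of the p53 family, rose from 5.04, 6.84 and 6.95 CPM to 42.4, 44.6 and 34.2 CPM (2.69, adjusted p = 4.47e-07). Slc7a5, the large subunit of a leucine transporter, rose from 3.6, 3.08 and 1.89 CPM to 11.9, 23.4 and 18.9 CPM (2.66, adjusted p = 5.61e-06). Tnfrsf12a, the receptor for TWEAK, rose from 10.6, 8.97 and 9.46 CPM to 42.6, 58.2 and 79.4 CPM (2.64, adjusted p = 3.02e-05). In all 3 the lowest +3h library was above the highest +0h library at least 3-fold. Cyp1b1, a cytochrome P450, and Gpat3, which starts glycerolipid synthesis, rose by 2.56 and 2.54 (adjusted p = 2.68e-05 and 2.62e-06).

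Promoter sequence was read for the 12 largest falls and 12 largest rises by those limits, of which 17 had an entry in the RefSeq promoter table for GRCm38.p6 (9 falls and 8 rises). All 250 bases before each annotated start of a gene were searched for fixed motifs on both strands, including any part that an annotated exon covers. A gene was counted where any of its starts had a match. Shares are of the 11856 tested genes with an entry, counted in the same way. The cAMP response element TGACGTCA was in 2 of the 9 falls, Btg2 and Dusp1, and in 0 of the 8 rises, against 2.79% of the tested genes and 1.55% of all 32851 promoters in the table. The AP-1 site TGAGTCA was in 0 falls and in 1 rise, Srxn1, against 4.25%. The FoxO site GTAAACA was in 1 fall (Junb) and 1 rise (Tmem140), against 2.79%, the E-box CACGTG in 2 falls (Egr2 and Dusp1) and 0 rises, against 9.46%, and the heat shock element core GAANNTTC in 0 falls and 2 rises (Csrp3 and Ankrd1), against 6.11%. The ERR site TCAAGGTCA was in none of the 17, against 0.295%, the core of a glucocorticoid element, AGAACA, in 1 fall (Dnajb1) and 1 rise (Csrp3), against 13.4%, and the CArG box in 1 fall (Egr2), against 1.44%. A match is a run of letters and not a shown binding site. Of these sequences 2 falls and 3 rises are shown, because they carry the cAMP, AP-1 and FoxO matches and the gene with the largest rise. Each is printed 5′ to 3′ on the strand of its gene, with motif matches in capitals, and cut where an annotated exon begins.
Dusp1, chr17:26508520-26508722, - strand: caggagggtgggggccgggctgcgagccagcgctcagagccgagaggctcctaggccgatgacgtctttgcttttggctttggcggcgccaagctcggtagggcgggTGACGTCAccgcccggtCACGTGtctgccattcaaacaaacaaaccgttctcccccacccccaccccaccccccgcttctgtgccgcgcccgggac
Btg2, chr1:134079156-134079405, - strand: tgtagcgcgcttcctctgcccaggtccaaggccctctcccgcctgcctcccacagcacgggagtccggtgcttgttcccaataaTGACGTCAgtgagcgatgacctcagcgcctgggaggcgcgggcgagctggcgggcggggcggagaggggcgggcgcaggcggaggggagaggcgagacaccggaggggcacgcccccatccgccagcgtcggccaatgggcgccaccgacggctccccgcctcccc
Srxn1, chr2:152105274-152105515, + strand: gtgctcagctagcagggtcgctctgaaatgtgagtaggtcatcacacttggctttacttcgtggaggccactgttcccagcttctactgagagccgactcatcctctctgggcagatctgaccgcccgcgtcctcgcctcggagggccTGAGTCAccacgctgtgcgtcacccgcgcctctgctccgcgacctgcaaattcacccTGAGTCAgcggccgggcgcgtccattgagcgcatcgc
Tmem140, chr6:34862896-34863145, + strand: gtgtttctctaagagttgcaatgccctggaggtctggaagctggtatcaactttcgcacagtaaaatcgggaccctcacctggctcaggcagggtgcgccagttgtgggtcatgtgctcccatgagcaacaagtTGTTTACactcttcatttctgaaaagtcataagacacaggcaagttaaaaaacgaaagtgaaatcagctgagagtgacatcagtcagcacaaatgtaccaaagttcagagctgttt
Ppargc1a, chr5:51567727-51567975, - strand: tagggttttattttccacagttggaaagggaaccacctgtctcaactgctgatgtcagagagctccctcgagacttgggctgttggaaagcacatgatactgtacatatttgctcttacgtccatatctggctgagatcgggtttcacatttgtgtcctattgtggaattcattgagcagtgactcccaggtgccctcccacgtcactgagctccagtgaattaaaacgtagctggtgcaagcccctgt
The last of them held none of the 8 motifs in this window.

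Several genes of fuel choice rose during recovery. Pdk4 (gene 27273, chr6:5483351-5496278), the kinase that shuts pyruvate out of the citric acid cycle, was at 845, 540.0 and 438 CPM at +0h and at 2986, 3049 and 3173 CPM at +3h, a log2 change of 2.34 ± 0.30 (SE), adjusted p = 2.67e-05. The +3h libraries were close together and more than 3 times as high as any at +0h. Over the same hours Pdk4 fell in sedentary mice, from 488, 618 and 619 CPM at ZT12 to 169, 264 and 241 CPM at ZT16 (-1.36, adjusted p = 0.00682). Acot2, a mitochondrial thioesterase, rose from 11.2, 6.95 and 12.3 CPM to 44.2, 42.4 and 47.6 CPM (2.14, adjusted p = 1.47e-06), Ucp3, an uncoupling protein, from 296, 273 and 169 CPM to 603, 704 and 587 CPM (1.36, adjusted p = 0.00256), and Cpt1a, which brings long-chain fatty acids into mitochondria, from 13.3, 13.6 and 11.7 CPM to 24.9, 25.6 and 22.6 CPM (0.92, adjusted p = 1.24e-05). Each of the 3 had groups that did not overlap. On the list of fatty acid use and lipid release, 8 of 34 genes rose and 1 fell, with a median of 0.38, against 7.28% of all genes raised and 8.47% lowered. The rest of the rises were of Acot1 (1.48), Ucp2 (0.74), Mlycd (0.39) and Eci2 (0.25). The one that fell was G0s2 (-1.25), an inhibitor of adipose triglyceride lipase. Its call was lost in 5 of the 6 fits that leave out a library, all but that without replicate 2 of +0h. Without replicate 2 of +0h, 5 genes of the list rose, the calls of Acot1 and Mlycd being lost. That of Ucp2 was lost without replicate 2 of +3h. That of Eci2 was lost in all 5 fits other than the one without replicate 1 of +0h. The 10 adipocyte markers summed to 1251 to 2683 CPM at +0h and 2065 to 3195 CPM at +3h, with 0 called by edgeR, 1 raised at an unadjusted p under 0.05 and 0 by DESeq2, and their part in these values was not tested beyond a fit with the adipocyte score as a covariate, in which 2537 genes were called.

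For glucose, Hk2 (gene 15277, chr6:82725025-82774454), the muscle hexokinase that traps glucose in the fibre, went from 457, 433 and 415 CPM to 919, 1221 and 1361 CPM (1.42 ± 0.13 (SE), adjusted p = 2.08e-07), with no overlap. Slc16a1, a lactate and pyruvate carrier, went from 21.6, 24.8 and 27.1 CPM to 49.2, 49.97 and 51.5 CPM (1.04, adjusted p = 0.000481), and Tbc1d1, a Rab regulator of glucose transporter traffic, from 88.8, 78.6 and 54.9 CPM to 144, 149.6 and 149.9 CPM (1.00, adjusted p = 0.00183). Both also rose in sedentary mice from ZT12 to ZT16 (0.98, adjusted p = 0.00233 and 1.37, adjusted p = 0.000476), and neither differed from the sedentary change (0.06, adjusted p = 0.919 and -0.38, adjusted p = 0.448). Pdp1, the phosphatase that opposes the Pdk kinases, fell from 65.7, 67 and 74.3 CPM to 37.5, 32.5 and 34.4 CPM (-0.99, adjusted p = 2.88e-07). In all, 5 of 34 genes of glucose and glycogen handling rose and 2 fell (median 0.07), beside the 15.8% of all genes called, with Txnip (0.52), an inhibitor of glucose uptake, and Hk1 (0.31) among the rises and Arrdc4 (-0.71), a relative of Txnip, among the falls. The call of Hk1 was lost without replicate 1 or 3 of +0h or replicate 2 of +3h. That of Arrdc4 was lost without replicate 2 of either group. Of 31 genes of insulin, IGF and mTORC1 signalling, 2 rose and 5 fell (median -0.05), beside the same 15.8%. Without replicate 1 of +0h 4 rose and 3 fell. Without replicate 3 of +0h or replicate 1 of +3h 3 fell. In the fit to the 6 libraries alone 1 rose and 1 fell. Irs2, an adaptor of the insulin receptor, dropped from 121, 74.3 and 59.8 CPM to 24, 37.5 and 37.6 CPM (-1.37, adjusted p = 0.00991), and without replicate 1 of +0h the change was -1.02, adjusted p = 0.0578. Ddit4l, an inhibitor of mTORC1, dropped from 177, 219 and 302 CPM to 154, 137 and 120.1 CPM (-0.76, adjusted p = 0.00421), while Akt1 (0.30) and Eif4ebp1 (0.90) rose. In the fit to the 6 libraries alone the calls of Irs2, Ddit4l and Eif4ebp1 were lost (adjusted p = 0.0649, 0.0669 and 0.0723).

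Both ubiquitin ligases best known from muscle atrophy rose. Trim63 (gene 433766, chr4:134315120-134329629), which encodes MuRF1, stood at 571, 376 and 272 CPM and then at 1204, 2348 and 2422 CPM (2.29 ± 0.28 (SE), adjusted p = 1.63e-05). The +3h libraries were all above the +0h ones, replicate 1 being the lowest of the 3, and far above sedentary mice at ZT16 (139, 180.0 and 189 CPM). Fbxo32, which encodes atrogin-1, went from 406, 391 and 241 CPM to 1085, 1301 and 1201 CPM (1.79 ± 0.23 (SE), adjusted p = 2.87e-05), and Cblb, a ligase for receptor tyrosine kinase signalling proteins, from 26.7, 19.5 and 20.4 CPM to 37.6, 40.9 and 39 CPM (0.82, adjusted p = 1.2e-05). On the list of ubiquitin ligases and FoxO-linked atrophy genes, 5 of 24 rose and 4 fell (median 0.12), against 7.28% of all genes raised and 8.47% lowered. The falls were of Foxo6 (-1.22), Usp2 (-0.66), Trim55 (-0.32) and Traf6 (-0.27). Without replicate 1 of +0h, 8 rose, and without replicate 2 of +0h or replicate 3 of +3h, 2 fell. The call of Foxo6 was lost without replicate 2 or 3 of either group. That of Trim55 was lost without replicate 2 of either group. That of Traf6 was lost without replicate 1 of +0h or replicate 3 of +3h.

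Of 30 autophagy and lysosome genes, 7 rose and 0 fell (median 0.16), against 7.28% of all genes raised and 8.47% lowered. Gabarapl1, which is conjugated to autophagosome membranes, had the largest change, from 44.7, 38.5 and 39 CPM to 116, 161 and 174 CPM (1.88 ± 0.15 (SE), adjusted p = 1.2e-07), against 39.6, 43.8 and 39.1 CPM in sedentary mice at ZT16. Flcn, folliculin, a regulator of lysosomal signalling, rose from 78.6, 72 and 59.8 CPM to 118, 126 and 147 CPM (0.89, adjusted p = 6.08e-06), and Sqstm1, the cargo receptor p62, from 556, 585 and 528 CPM to 672, 778 and 778 CPM (0.42, adjusted p = 0.00181). These 3 had groups that did not overlap. The other 4, Bnip3 (0.39), Ctsd (0.27), Lamp2 (0.26) and Map1lc3b (0.24), changed by less, and the count was 3 without replicate 2 or replicate 3 of +0h or replicate 2 of +3h, and 4 without replicate 3 of +3h. Bnip3 lost its call without replicate 2 of +0h (0.33, adjusted p = 0.0706), replicate 3 of +0h (0.31, adjusted p = 0.074) or replicate 2 of +3h (0.35, adjusted p = 0.0553), and in the fit to the 6 libraries alone (0.38, adjusted p = 0.0785). The call of Lamp2 was lost in all 6 fits that leave out a library, and that of Ctsd in 5, all but that without replicate 1 of +3h. That of Map1lc3b was lost without replicate 2 or 3 of either group. Of 30 proteasome subunits 1 rose, Psmd11 (0.24, adjusted p = 0.0272), which also lost its call in 4 of the 6 fits that leave out a library, at values of 0.19 to 0.24, and in the fit to the 6 libraries alone (0.24, adjusted p = 0.0576). Without replicate 1 of +0h 4 proteasome subunits rose, and without replicate 1 of +3h 2 rose.

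Genes that respond to glucocorticoids went both ways, and Zbtb16 and the metallothioneins were among those that rose. Zbtb16, a zinc finger repressor, was at 120.5, 65.2 and 53.3 CPM and then 203, 220.5 and 210.3 CPM (1.41, adjusted p = 0.000125), and it also rose in sedentary mice from ZT12 to ZT16 (1.03, adjusted p = 0.00474). Its call was lost in the fit to the 6 libraries alone (1.40, adjusted p = 0.0558). Of 25 glucocorticoid responsive genes 6 rose, 4 fell and 15 were not called (median 0.25), against 7.28% of all genes raised and 8.47% lowered. The falls were of Dusp1, Errfi1, Per1 and Cebpb (-0.73). The rises include Trim63 and Fbxo32, and without replicate 1 of +0h the count was 11. The call of Cebpb was lost in all 6 fits that leave out a library. The metallothioneins Mt1 and Mt2, which bind zinc, were at 85.8, 77.4 and 69.3 CPM and 53.5, 46.3 and 39.1 CPM at +0h, and at 88.5, 180.4 and 131 CPM and 84.1, 166 and 107 CPM at +3h (0.78, adjusted p = 0.0291 and 1.36, adjusted p = 0.00421). The call of Mt1 was lost without replicate 2 or 3 of either group. Both were high at both times against sedentary mice at ZT16, which held 12, 8.06 and 11.9 CPM and 6.65, 3.39 and 5.41 CPM.

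Of 25 genes of the NRF2 and antioxidant list 8 rose and 1 fell (median 0.19), against 7.28% of all genes raised and 8.47% lowered. Srxn1, sulfiredoxin, which restores peroxiredoxins, went from 36.6, 37.5 and 33.7 CPM to 156, 234 and 206 CPM (2.47 ± 0.33 (SE), adjusted p = 6.19e-05), its libraries far apart. Bach1, a repressor of the same target genes, went from 33.3, 33.4 and 30.7 CPM to 56.6, 89.1 and 77.7 CPM (1.20, adjusted p = 1.58e-06), and the heme oxygenase gene Hmox1 changed by 1.41, adjusted p = 0.00321. Txnrd1, thioredoxin reductase, and Gclc, the catalytic subunit of the first enzyme of glutathione synthesis, rose by 0.46 and 0.46 with no overlap of their groups. Nfe2l2, which encodes NRF2 itself, fell (-0.52, adjusted p = 0.0165), a call lost without replicate 1 or 2 of either group.

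Ligands and receptors of vessel growth were among the genes that rose, and so were markers of endothelial cells. Efna1 (gene 13636, chr3:89271730-89280951), the ligand ephrin A1, was at 2.81, 2.24 and 4.09 CPM at +0h, below sedentary mice at ZT12 (7.86, 6.42 and 7.16 CPM), and at 16.8, 12.9 and 17 CPM at +3h, above sedentary mice at ZT16 (7.9, 9.15 and 6.55 CPM). The log2 change was 2.35 ± 0.19 (SE), adjusted p = 1.07e-07. Aplnr, the apelin receptor of endothelial cells, also began below the sedentary level, at 0.757, 1.04 and 1.85 CPM, and reached 9.51, 4.49 and 5.64 CPM (2.44, adjusted p = 0.000282), overlapping the 7.02, 7.03 and 4.65 CPM of sedentary mice at ZT16. Angpt2, a ligand that loosens vessel walls, went from 1.4, 1.87 and 1.43 CPM to 3.89, 3.93 and 6.72 CPM (1.63, adjusted p = 3.07e-05), and its receptor Tek from 14.6, 14.6 and 16.1 CPM to 25.5, 21 and 23.1 CPM (0.62, adjusted p = 1.13e-05). Kdr, the main VEGF receptor, went from 17, 20.8 and 25.6 CPM to 41.9, 30.7 and 37.6 CPM (0.80, adjusted p = 0.0019). Its change beyond the passage of time was not called (0.37, adjusted p = 0.34). In none of these 4 receptors and ligands did the +0h and +3h libraries overlap.

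Of 31 hypoxia and angiogenesis genes 11 rose and 3 fell (median 0.19), against 7.28% of all genes raised and 8.47% lowered. Without replicate 2 of +0h 6 rose. In sedentary mice 6 of the 31 rose from ZT12 to ZT16 and 1 fell (median 0.27). Beyond the passage of time 3 were more positive and 2 more negative (median -0.009). Vegfa, the main vessel growth factor, was at 196, 194 and 208 CPM and then 235, 235 and 297 CPM (0.36, adjusted p = 0.0278), with the call lost without replicate 1 of +0h (0.35, adjusted p = 0.0758), replicate 2 of +0h (0.34, adjusted p = 0.0898) or replicate 3 of +3h (0.24, adjusted p = 0.195). Among those that fell were Thbs1 and Adamts1 (-1.48), which inhibit vessel growth. Of the 9 endothelial markers 5 rose (median 0.32): Pecam1, Kdr, Tek, Tie1 (0.38) and Cdh5 (0.32), of which Kdr, Tek and Tie1 are on both lists. Without replicate 2 of +0h, 3 rose, the call of Tie1 being lost. The call of Cdh5 was lost in all 6 fits that leave out a library. In sedentary mice 1 of the 9 rose from ZT12 to ZT16 and 0 fell (median 0.29). Beyond the passage of time 1 was more positive, Pecam1 (0.57, adjusted p = 0.0368), and 0 were more negative (median 0.08). Pecam1 went from 53.2, 45.5 and 52.6 CPM to 81, 88.9 and 104 CPM (0.86, adjusted p = 5.45e-05). The 9 markers summed to 243.6 to 270.1 CPM at +0h, 326.4 to 349.3 CPM at +3h, 224.2 to 292.9 CPM in sedentary mice at ZT12 and 303.3 to 320.7 CPM at ZT16. In whole muscle, fewer or more cells of a type and less or more RNA per cell cannot be told apart, and the part of endothelial RNA in the rise of the angiogenic genes was not tested.

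Among cytokines and inflammatory genes 7 of 26 rose and 4 fell (median 0.31), against 7.28% of all genes raised and 8.47% lowered. Il4ra, a receptor chain for interleukin 4, rose from 8.88, 8.86 and 9.23 CPM to 19.5, 18.8 and 20.1 CPM (1.11, adjusted p = 4.69e-07), and Osmr, the oncostatin M receptor, from 10.8, 9.21 and 10.7 CPM to 16.1, 17.1 and 16.1 CPM (0.68, adjusted p = 0.000758). The libraries of each gene were tightly grouped and did not overlap. Selp, which tethers leukocytes to vessel walls, changed by 1.03 and Il1r1, the interleukin 1 receptor, by 0.67. The chemokines split, with Cxcl10 at 3.06, adjusted p = 0.0268, Cxcl12 at 0.42, adjusted p = 0.00763, Cxcl1 at -3.20, adjusted p = 0.0157 and Ccl11 at -0.73, adjusted p = 0.00027. The call of Cxcl10 was lost without any one of the +0h libraries or replicate 3 of +3h. That of Cxcl1 was lost without replicate 3 of +0h or replicate 2 or 3 of +3h. That of Cxcl12 was lost without replicate 1 of +0h. The call of Selp was lost without replicate 1 of either group. Ccl11, an eosinophil attractant, had gone from 21.4, 21.4 and 17.9 CPM to 12.2, 11.7 and 12.8 CPM. Of 21 myokines 1 rose, Vegfa, and 1 fell. The latter was Lif (-1.01, adjusted p = 0.0478), low at 0.572, 0.797 and 0.482 CPM and 0.208, 0.281 and 0.4219 CPM, whose call was lost in 4 of the 6 fits that leave out a library and in 4 of the other alternatives, at values of -1.06 to -0.78. Summed neutrophil markers (6 measured) were 3.37 to 3.51 CPM at +0h and 4.78 to 9.23 CPM at +3h. Of these, S100a9 (2.94, adjusted p = 0.0226) rested on replicate 1 of +3h, its values being 0.0554, 0.111 and 0.12 CPM and then 2.06, 0.0801 and 0.123 CPM. Summed macrophage markers (12 measured) overlapped, at 167.4 to 185.6 CPM and 158.9 to 275.4 CPM, with 1 of them, Ccr2, called (1.23).

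**Figure D3:**
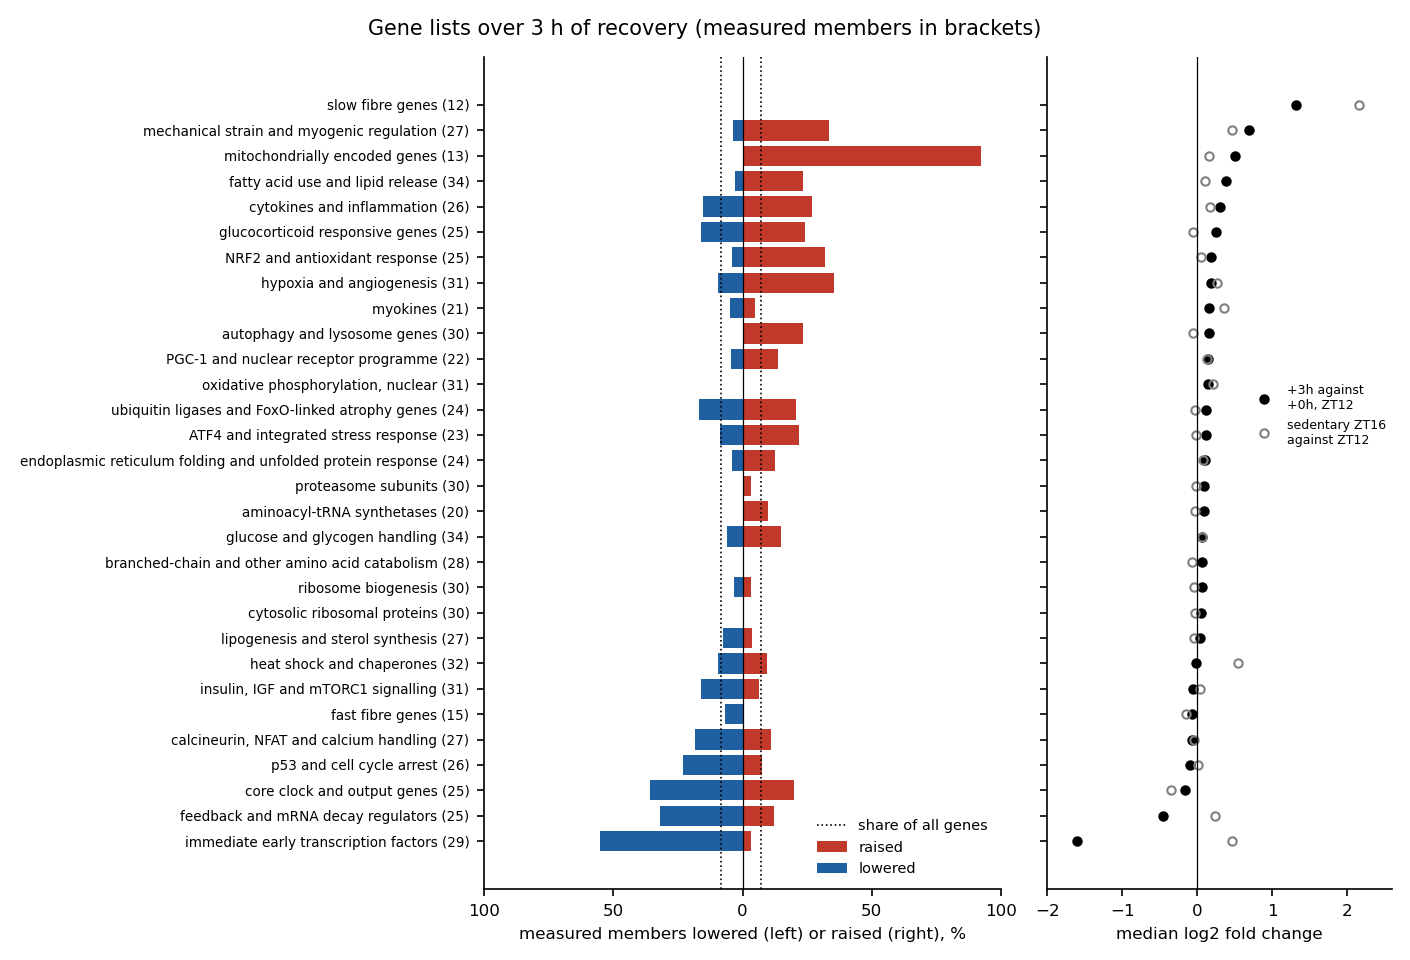
Members of each gene list that rose (to the right) or fell (to the left) from +0h to +3h, as a percentage of the members measured, beside the 7.28% raised and 8.47% lowered among all genes tested. The longest bars are those of the mitochondrially encoded genes to the right (12 of 13) and the immediate early transcription factors to the left (16 of 29).

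Of 27 genes of mechanical strain and myogenic regulation 9 rose and 1 fell, with a median of 0.69, against 7.28% of all genes raised and 8.47% lowered. In sedentary mice 5 of the 27 rose from ZT12 to ZT16 and 0 fell (median 0.46). Beyond the passage of time 0 were more positive and 1 was more negative (median 0.09). Csrp3 (gene 13009, chr7:48830398-48848051), a Z-disc protein that senses stretch, was at 24.4, 3.93 and 7.55 CPM and then at 90.4, 96.8 and 100.5 CPM (3.00 ± 0.79 (SE), adjusted p = 0.0151). Its +3h libraries were close together, but its +0h libraries spread 6-fold, and the call was lost without replicate 2 of +0h (2.58, adjusted p = 0.0692), without replicate 3 of +0h (2.76, adjusted p = 0.068) and in the fit to the 6 libraries alone (3.00, adjusted p = 0.0751). Ankrd1, a titin-binding protein, was at 6.7, 9.19 and 5.72 CPM and then 20.7, 49.8 and 71.2 CPM (2.71 ± 0.82 (SE), adjusted p = 0.0324), with the call lost in 5 of the 6 fits that leave out a library, at values of 2.29 to 2.92. Flnc, filamin C, which crosslinks actin at the Z-disc, went from 884, 690.1 and 646 CPM to 1630, 2743 and 2818 CPM (1.70 ± 0.32 (SE), adjusted p = 0.00124). Rrad, a small GTPase, went from 1.18, 1.5 and 2.07 CPM to 6.82, 8.54 and 13.5 CPM (2.61, adjusted p = 0.00443). In all 4 genes every +3h library lay above every +0h library, which the limits required of those among the largest rises. Replicate 1 was the lowest of the +3h libraries in each.

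Mustn1, active in muscle regeneration, went from 29.7, 28.6 and 24.3 CPM to 62.2, 106 and 148 CPM (1.94, adjusted p = 0.0108) and Hbegf, an EGF family ligand, from 32.9, 25.4 and 18.9 CPM to 44.5, 91 and 102 CPM (1.62, adjusted p = 0.0136). Both calls were lost without replicate 3 of +3h (1.61, adjusted p = 0.0538 and 1.40, adjusted p = 0.0615), that of Hbegf also without replicate 3 of +0h (1.44, adjusted p = 0.0654) and in the fit to the 6 libraries alone (1.61, adjusted p = 0.0669). Ankrd2 (2.09), Xirp1 (1.88) and Rcan1 (1.37) rose, and Myog, the differentiation factor myogenin, fell (-0.86, adjusted p = 0.0281). The call of Ankrd2 was lost without replicate 2 or 3 of +0h, and that of Xirp1 without these or replicate 3 of +3h. That of Rcan1 was lost in all 6 fits that leave out a library. The call of Myog was lost without replicate 1 of +0h or any one of the +3h libraries and in the fit to the 6 libraries alone. The count of 9 became 4 without replicate 2 of +0h, 3 without replicate 3 of +0h and 4 without replicate 3 of +3h. The 12 slow fibre genes had a median of 1.32, with 0 called by edgeR, 0 at an unadjusted p under 0.05 and 0 by DESeq2, and summed to 136.7 to 364.1 CPM at +0h and 312.7 to 705.5 CPM at +3h. Their libraries overlapped: Myl3, the slow light chain, was at 14.3, 10.4 and 53.8 CPM and then 41.5, 73.4 and 100.4 CPM (1.46, adjusted p = 0.428), and at 313, 198 and 22.5 CPM in sedentary mice at ZT16. How much slow fibre each piece of muscle held, and its part in the strain genes, was not tested. The 15 fast fibre genes had a median of -0.06, and the 1 that fell, Casq1, the calcium store protein of fast fibres, was at 3374, 4138 and 3871 CPM and then 3007, 2826 and 2537 CPM (-0.44, adjusted p = 0.0184), a call lost without replicate 2 of +0h, replicate 3 of +0h or replicate 3 of +3h (values of -0.43 to -0.38).

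Calcium signalling genes went both ways, with 3 of 27 raised and 5 lowered (median -0.07), beside 7.28% of all genes raised and 8.47% lowered. The count of rises was 1 in 5 of the fits that leave out a library, all but that without replicate 3 of +3h. Without replicate 2 or 3 of +0h or replicate 3 of +3h 2 fell, and 3 without replicate 2 of +3h. Nfatc1, a calcineurin-driven transcription factor of slow fibres, went from 48.2, 46.6 and 48.2 CPM to 81.7, 87.6 and 94.3 CPM (0.88 ± 0.06 (SE), adjusted p = 1.94e-08), while Nfatc2 went from 13.2, 14.4 and 13.4 CPM to 5.93, 7.61 and 7.3 CPM (-0.98, adjusted p = 0.00148) and Nfatc3 from 35.5, 40.2 and 36.2 CPM to 30.9, 29.9 and 27.8 CPM (-0.34, adjusted p = 0.00212). In each of these 3 family members the groups did not overlap, as in 2309 of the 2378 called genes. Of 26 p53 and growth arrest genes 2 rose and 6 fell (median -0.09), beside the same shares of all genes. Gadd45a, a stress sensor, rose from 24.9, 24.4 and 25.9 CPM to 54.6, 68 and 51.7 CPM (1.21, adjusted p = 1.08e-05), and its relative Gadd45g fell (-1.74, adjusted p = 0.02), a call lost without replicate 3 of either group and in the fit to the 6 libraries alone. Tob2, an antiproliferative relative of Btg2, fell from 310.2, 279 and 265 CPM to 48.8, 103 and 108 CPM (-1.72, adjusted p = 3.78e-05). The satellite cell factor Pax7 fell from 1.68, 1.93 and 2.33 CPM to 1.23, 0.822 and 0.879 CPM (-1.02, adjusted p = 0.00129), the 1 of 7 satellite cell markers called, while the 7 together summed to 110.3 to 130.5 CPM and 121.5 to 126.5 CPM.

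Of 32 heat shock and chaperone genes 3 rose and 3 fell (median -0.02), a share near the 15.8% of all genes called. In the fit to the 6 libraries alone 6 rose and 5 fell. Dnajb1, the main partner of inducible HSP70, fell from 168, 109.8 and 319.5 CPM to 7.97, 14.2 and 14.9 CPM (-4.01 ± 1.07 (SE), adjusted p = 0.0164), with the call lost without replicate 3 of +0h (-3.49, adjusted p = 0.0519) and without any one of the +3h libraries (adjusted p from 0.0562 to 0.0639). Hspa1b (gene 15511, chr17:34956429-34959238), an inducible HSP70 gene, was at 176, 147 and 375 CPM and then 67.7, 169 and 124 CPM, with overlapping groups (-0.95 ± 0.95 (SE), adjusted p = 0.572). The counts of Hspa1b and its near-identical copy Hspa1a, which changed by -0.61, adjusted p = 0.713, could be split between them in either way. Hspb7, a small heat shock protein of striated muscle, rose from 172, 93.5 and 118 CPM to 456, 619 and 701 CPM (2.21, adjusted p = 0.00286). Dnajb5 fell from 238, 224 and 225 CPM to 154, 153 and 166 CPM (-0.54, adjusted p = 1.63e-05) and Hspb3 from 20.01, 19.9 and 20.3 CPM to 14, 14.9 and 16.1 CPM (-0.42, adjusted p = 0.00315). Hspa4 (0.28) and Hspb6 (0.56) were the other rises, and 1 rise was counted without replicate 3 of +0h, where Hspa4 stood at 0.23, adjusted p = 0.0561. The call of Hspb6 was lost in all 6 fits that leave out a library.

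Of 24 unfolded protein response genes 3 rose and 1 fell (median 0.10), again near 15.8%, and 1 rose without replicate 3 of +3h. The fall was of Syvn1 (-0.19), a ubiquitin ligase of the endoplasmic reticulum. Its call was lost in 5 of the 6 fits that leave out a library, all but that without replicate 2 of +0h. Ern1, the stress sensor IRE1, went from 9.6, 7.23 and 8.03 CPM to 12, 13.1 and 16.1 CPM (0.73, adjusted p = 0.000539), with no overlap. Of 23 ATF4 and integrated stress response genes 5 rose and 2 fell (median 0.11), against 7.28% of all genes raised and 8.47% lowered, with 3 rising without replicate 3 of +0h or of +3h. After Slc7a5 the largest of these were Eif4ebp1 and Vldlr, a lipoprotein receptor, at 255, 295 and 208 CPM and then 434, 449 and 427 CPM (0.79, adjusted p = 0.00064). The falls were of Cebpb (-0.73) and Sesn2 (-0.59). The list had 0 falls without replicate 1 or 3 of +0h or replicate 1 of +3h. It had 1 fall in each of the other 3 fits that leave out a library. Of 20 aminoacyl-tRNA synthetases 2 rose, a share near the 7.28% of all genes raised. Eprs, which charges both glutamate and proline, accounted for the larger rise, from 315, 291 and 277 CPM to 499, 526 and 487 CPM (0.77, adjusted p = 4.73e-07). The other was Cars (0.20). The count was 1 without replicate 2 or 3 of either group, 3 without replicate 1 of +0h and 4 without replicate 1 of +3h.

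Of the 13 mitochondrially encoded genes 12 rose, with a median of 0.51, against 7.28% of all genes, and 10 to 12 rose whichever library was left out. mt-Nd5, a complex I subunit, was at 4729, 4692 and 4940 CPM and then 7290, 6752 and 7247 CPM (0.57 ± 0.10 (SE), adjusted p = 0.00035), and mt-Nd3, a further complex I subunit, at 709.9, 713 and 698 CPM and then 1088, 1094 and 1134 CPM (0.65 ± 0.11 (SE), adjusted p = 0.000475). All 3 libraries at +3h lay above all 3 at +0h in both. Over the same hours in sedentary mice edgeR called 0 of the 13, also at an unadjusted p under 0.05 (median 0.15). The test of the difference between both changes called 2 of the 13 as more positive in recovery and 0 as more negative (median 0.35). Of 31 nuclear genes of oxidative phosphorylation edgeR called 0 in recovery (median 0.14), against 3 raised at an unadjusted p under 0.05 and 1 in DESeq2. These libraries were made from polyadenylated RNA, and the mitochondrial share given above is computed from the same counts.

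Several large programmes had no or nearly no gene past the test. Of 30 cytosolic ribosomal proteins edgeR and DESeq2 called 0 (median 0.05), with 2 raised at an unadjusted p under 0.05. Of 28 genes of branched-chain and other amino acid catabolism edgeR called 0 (median 0.06), with 3 raised and 3 lowered at an unadjusted p under 0.05 and 1 called by DESeq2. Of 30 ribosome biogenesis genes 1 rose and 1 fell (Npm1, 0.22, and Dkc1, -0.17), both losing their calls in most fits that leave out a library. Of 27 genes of lipogenesis and sterol synthesis 1 rose and 2 fell (median 0.04). There were 0 falls without replicate 3 of +0h, and 1 without replicate 1 of +0h or replicate 2 or 3 of +3h. There were 2 rises without replicate 1 of +0h, and 0 without replicate 2 or 3 of +0h or replicate 1 or 2 of +3h. In the fit to the 6 libraries alone 3 rose.

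Clock genes changed between the groups, and 8 of the 14 that were called were also called in the same direction in mice that had not run. Of 25 core clock and output genes 5 rose and 9 fell (median -0.16), against 7.28% of all genes raised and 8.47% lowered. Without replicate 2 or 3 of +0h or replicate 2 or 3 of +3h 3 rose. Arntl (gene 11865, chr7:113178471-113314126) was at 4.87, 5.91 and 4.4 CPM and then 22.4, 24.7 and 19.4 CPM (2.13 ± 0.18 (SE), adjusted p = 1.65e-07). Sedentary mice held 4.57, 3.07 and 4.09 CPM at ZT12 and 13.7, 12.47 and 19.3 CPM at ZT16 (1.95 ± 0.18 (SE), adjusted p = 5.52e-06), so that both pairs of groups were apart and the change beyond the passage of time was 0.18, adjusted p = 0.719. Npas2, a partner of Arntl, rose from 0.203, 0.148 and 0.181 CPM to 0.583, 1.12 and 0.475 CPM (2.01, adjusted p = 0.000685) and in sedentary mice by 2.21, adjusted p = 0.00245. Dbp, a PAR bZIP factor driven directly by the clock, fell from 71.6, 93.1 and 100.1 CPM to 47.7, 43.9 and 42.8 CPM (-0.98, adjusted p = 8.39e-05) and in sedentary mice from 119, 122 and 119.6 CPM to 42.5, 56.5 and 45.8 CPM (-1.32, adjusted p = 2.53e-05). Hlf (-0.86 and -0.65 in sedentary mice), Per3 (-1.03 and -0.92), Tef (-0.36 and -0.35) and Nr1d2 (-0.55 and -0.35) fell in both comparisons.

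Per1 and Per2 were not called in sedentary mice (-1.03, adjusted p = 0.0851 and 0.13, adjusted p = 0.876), and their changes beyond the passage of time were not called either (-0.88, adjusted p = 0.324 and -1.001, adjusted p = 0.325). Per1, which is also an immediate early gene, was at 292, 219 and 176 CPM at +0h, above sedentary mice at ZT12 (101, 129.5 and 125 CPM), and at 26.7, 81.9 and 74.1 CPM at +3h, a log2 change of -1.91 ± 0.37 (SE), adjusted p = 0.0018. Replicate 1 of +3h was the lowest, and the call was lost in the fit to the 6 libraries alone (-1.92, adjusted p = 0.0808). Per2 was at 61.8, 53.8 and 56.5 CPM and then 27.5, 33.1 and 33.6 CPM, groups that did not overlap, with a change that did not pass the test (-0.87 ± 0.42 (SE), adjusted p = 0.179) except in the fit to the 6 libraries alone (-0.88, adjusted p = 0.000863). Ciart, a repressor of Arntl and Clock, was above sedentary mice at +0h (1.63, adjusted p = 0.0228) and fell from 49.5, 33.6 and 23.8 CPM to 3.77, 5.93 and 9.39 CPM (-2.48, adjusted p = 0.000426). It fell in sedentary mice too (-2.14, adjusted p = 0.00433), and its change beyond the passage of time was -0.34, adjusted p = 0.775. Bhlhe40, a repressor that competes for the same sites, fell from 116, 101 and 114 CPM to 68.7, 54.9 and 93.6 CPM (-0.61, adjusted p = 0.0289) while sedentary mice held 101, 103 and 107 CPM and 90.0, 117 and 124 CPM. Its call was lost without replicate 1 or 3 of +0h or replicate 1 or 2 of +3h and in the fit to the 6 libraries alone.

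Nr1d1 and Cry1 did not pass the test between 0 and 3 h and did so in sedentary mice. Nr1d1, the repressor REV-ERB alpha, was at 21.5, 40.4 and 29.8 CPM and 21.4, 28.9 and 35.4 CPM, overlapping groups (-0.10, adjusted p = 0.811), and dropped in sedentary mice from 57.3, 46.8 and 54.7 CPM to 17.7, 27.6 and 21.4 CPM (-1.25, adjusted p = 0.00107). The difference between both changes was 1.15, adjusted p = 0.0136. Cry1, a repressor of the core loop, was at 15.6, 15.6 and 15.7 CPM and 15.1, 13.7 and 14.8 CPM (-0.10, adjusted p = 0.475), rose in sedentary mice from 12.9, 15 and 13.8 CPM to 18.9, 20.2 and 18.6 CPM (0.47, adjusted p = 0.00147), and differed by -0.57, adjusted p = 0.00335.

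**Figure D4:**
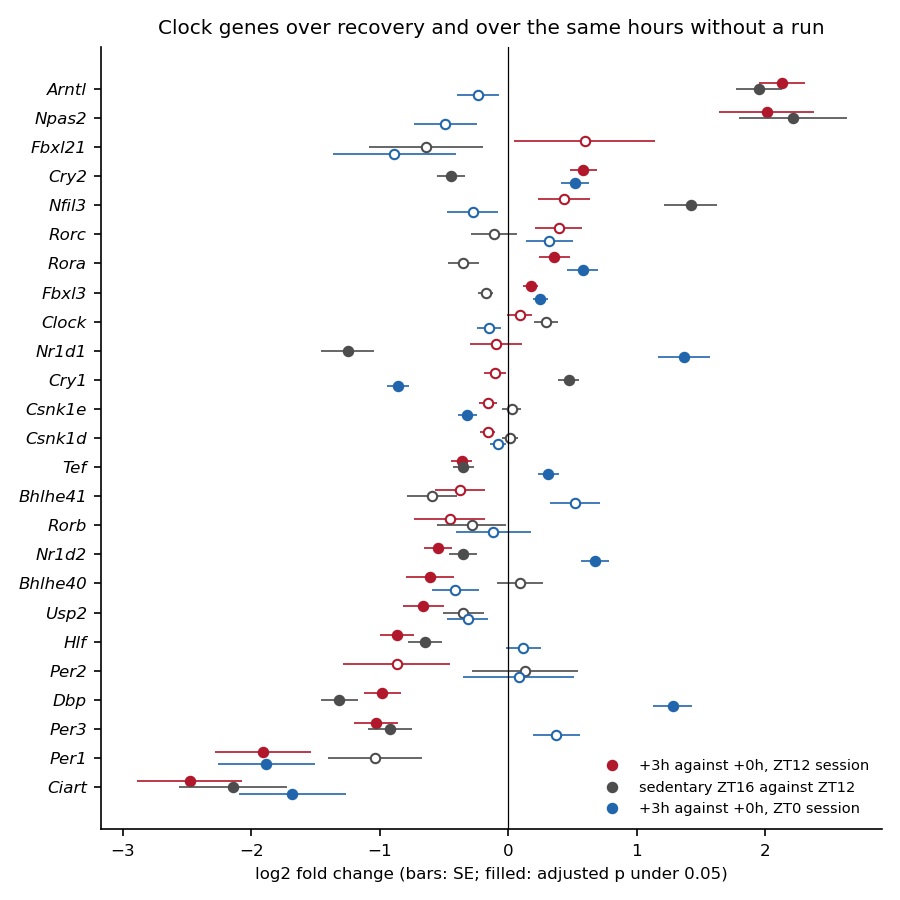
Log2 change with its standard error for clock and output genes in 3 comparisons: +0h to +3h after the ZT12 session, sedentary ZT12 to ZT16, and +0h to +3h after the ZT0 session. Arntl, Dbp, Hlf, Per3 and Nr1d2 lie on the same side of 0 in the first and second comparisons, and Dbp and Nr1d2 lie on the opposite side in the third.

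The passage of time was then set against recovery over all genes. In sedentary mice 793 genes were higher and 584 lower at ZT16 than at ZT12 (9.12% of those tested, 5.25% raised and 3.87% lowered), with changes of at least 2-fold in 145 and 66. The total of 1377 fell to 811 and 576 without replicate 1 and 2 of sedentary ZT12, and to 776 and 754 without replicate 1 and 2 of sedentary ZT16. Of the genes raised from +0h to +3h, 147 were raised in sedentary mice too (13.4% of the first list and 18.5% of the second), and 144 were lowered in both (11.3% and 24.7%). Another 32 were raised in recovery and lowered with time, and 115 lowered in recovery and raised with time. Across genes, which are not independent replicates, the log2 changes of both comparisons had a correlation of 0.07.

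The change in recovery minus the change with time passed the test for 1542 genes (10.2%), of which 638 were more positive (4.23%) and 904 more negative (5.99%), 239 and 313 at least 2-fold. Ppargc1a had the smallest p here as well (3.17 ± 0.16 (SE), adjusted p = 1.78e-10), and Tmem140 (3.05 ± 0.27 (SE), adjusted p = 2.27e-06) and Cltc, the clathrin heavy chain (0.99 ± 0.09 (SE), adjusted p = 2.45e-06), were the other positive values among the 8 smallest p. Cltc was at 159.7, 147 and 142 CPM and then 255, 263 and 254 CPM, and at 129, 127 and 125 CPM in sedentary mice at ZT16, so that the +3h libraries were the highest. The remaining 5 were negative. Pde4b, a cAMP phosphodiesterase, dropped from 79.9, 92 and 84.7 CPM to 42.3, 33.6 and 34.2 CPM while sedentary mice went from 39.7, 34.6 and 49.1 CPM to 74, 89.5 and 106 CPM (-2.35 ± 0.20 (SE), adjusted p = 1.15e-06). The groups thus crossed, each pair being apart in the opposite order. Dynll1, a dynein light chain (-1.74, adjusted p = 1.02e-06), Bcar1, a docking protein of focal adhesions (-1.53, adjusted p = 1.15e-06), Cdc42ep3, an effector of Cdc42 (-1.53, adjusted p = 1.15e-06), and Sphk2, a sphingosine kinase (-1.07, adjusted p = 2.45e-06), did the same, except that Sphk2 did not pass the test in recovery itself (-0.20, adjusted p = 0.0715), where it was called with a minimum count of 50 or without replicate 2 of +0h.

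Heat shock genes changed in sedentary mice over the same hours. In sedentary mice 14 of 32 rose from ZT12 to ZT16 (median 0.55), and set against this, 13 of 32 were more negative in recovery (median -0.37). Hspa1b was at 4.78, 2.49 and 5.34 CPM in sedentary mice at ZT12 and at 43.8, 253 and 359 CPM at ZT16 (5.70 ± 1.17 (SE), adjusted p = 0.00661), which overlaps both the +0h and the +3h libraries, and the change beyond time was -6.65, adjusted p = 0.00795. Of the immediate early factors 15 of 29 were more negative beyond time (median -2.16). Of fatty acid genes 7 of 34 were more positive and 1 more negative, and 7 of 30 autophagy genes and 6 of 24 atrophy genes were more positive. The shares of all genes tested were 4.23% more positive and 5.99% more negative. Of the hypoxia and angiogenesis genes 3 of 31 were more positive and 2 more negative, 2 of 13 mitochondrially encoded genes were more positive, and 1 of 27 mechanical strain genes was more negative. Angptl4, a lipoprotein lipase inhibitor, was at 17.7, 5.47 and 8.89 CPM and 44.9, 45.4 and 49.6 CPM in recovery (2.13, adjusted p = 0.0645) while sedentary mice held 51.7, 14.7 and 6.61 CPM at ZT12 and 3.32, 1.58 and 4.62 CPM at ZT16, a difference of 5.07, adjusted p = 0.00621. Its recovery change passed the test in DESeq2 (adjusted p = 0.0201), with the adipocyte covariate (1.65e-04) and in the fit to the 6 libraries alone (0.0491). The mean log2 CPM of the adipocyte markers was 7.79, 6.70 and 5.32 in sedentary mice at ZT12, in the same order as Angptl4. At ZT16 it was 5.79, 5.14 and 5.69. The part of adipocyte RNA in the difference for Angptl4 was not tested beyond a fit with the adipocyte score as a covariate. In that fit 1269 genes differed beyond the passage of time, and its value for the difference of Angptl4 is not given here.

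The +0h and +3h groups were also each set beside the sedentary group nearest in clock time, comparisons that share those libraries with the recovery contrast. Ppargc1a differed by 0.26 at +0h (adjusted p = 0.243) and by 3.43 at +3h (adjusted p = 1.5e-13), and Pdk4 by 0.08 (0.931) and 3.77 (2.78e-07). Fos differed by 3.91 (0.0228) and -1.75 (0.194), Junb by 4.59 (5.05e-05) and 0.02 (0.987), and Apold1 by 3.69 (0.000337) and -2.12 (0.00785). Apold1 and Egr3 (-2.37, adjusted p = 0.0233) were thus below sedentary mice at 3 h. Efna1 and Aplnr were below sedentary mice at +0h (-1.23, adjusted p = 0.000589, and -2.24, adjusted p = 0.00177).

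Recovery after the session at lights on gave 955 raised and 1178 lowered genes (14.1% of those tested, 6.33% and 7.8%), and the total of 2133 fell to 1411 without replicate 1 of its +0h group and to 1390 without replicate 2 of its +3h group. Of the genes raised after the ZT12 session 536 were raised after the ZT0 session (48.8% of the first list and 56.1% of the second), and 576 were lowered in both (45.0% and 48.9%), while 4 were raised at ZT12 and lowered at ZT0 and 5 the reverse. These pairs share no library. Across genes the log2 changes correlated at 0.503, and by rank at 0.462, as a description over genes that share libraries within each session. Ppargc1a was at 25.5, 28.2 and 23.7 CPM and then 232, 227 and 254 CPM after the ZT0 session (3.20, adjusted p = 5.27e-13), and the difference between sessions was 0.34, adjusted p = 0.4. Junb changed by -3.59, Dusp1 by -2.10, Trim63 by 1.85 and Pdk4 by 2.24, with differences between sessions that did not pass the test (-0.80, -0.85, 0.45 and 0.10). Fos was at 265, 364 and 268 CPM and then 200.1, 29.9 and 3.71 CPM (-1.94, adjusted p = 0.151), its +3h libraries spread over a wide range, and the difference of -2.47, adjusted p = 0.42 was not called.

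**Figure D5:**
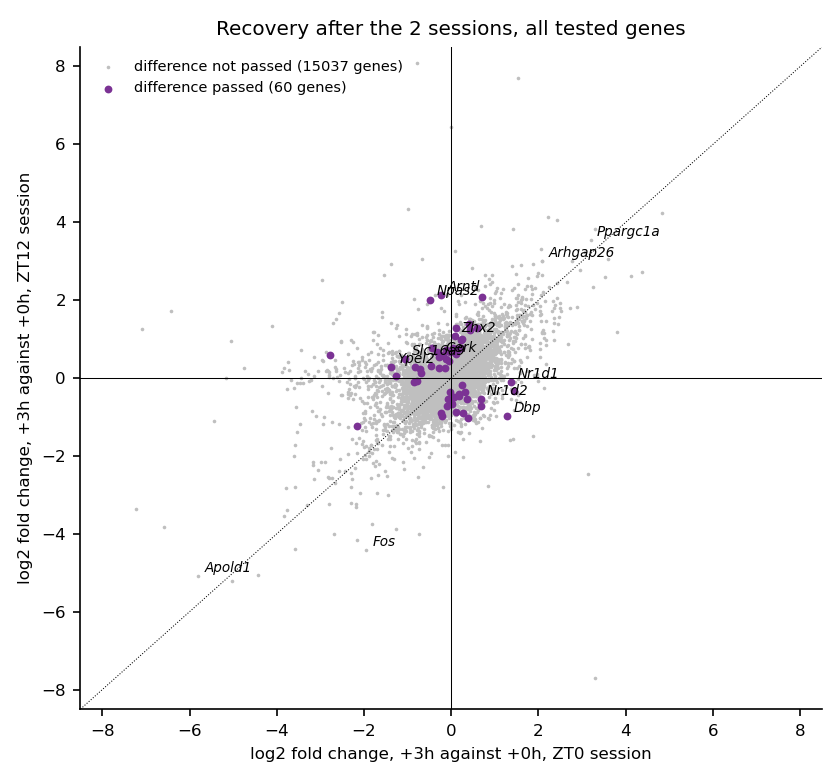
Log2 change from +0h to +3h of every tested gene after the ZT0 session (x axis) and after the ZT12 session (y axis), with the 60 genes whose change differed between sessions coloured. The changes of both sessions had a correlation of 0.503 across genes, Arntl lies above the diagonal and Dbp below it.

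The change from 0 to 3 h differed between sessions for 60 genes, 0.397% of those tested: 37 were more positive after the ZT12 session (0.245%) and 23 more negative (0.152%), 11 and 7 of them at least 2-fold. The count was 27 without replicate 2 of +0h and 36 without replicate 2 of +3h after the ZT12 session. For the ZT0 session it was 37 and 153 without replicate 1 and 2 of +0h, and 39 without replicate 2 of +3h. DESeq2 called 199. Clock genes were among them, with 3 of 25 more positive and 6 more negative. Dbp had the smallest p: it fell after the ZT12 session and rose after the ZT0 session, from 8.71, 9.05 and 6.82 CPM to 22.6, 21.3 and 16.2 CPM (1.28, adjusted p = 1.43e-05), a difference of -2.26 ± 0.21 (SE), adjusted p = 1.88e-05. Arntl rose in the former and stood at 49.1, 49.8 and 49.8 CPM and 38, 38.5 and 50.1 CPM in the latter (-0.23, adjusted p = 0.381), a difference of 2.36 ± 0.24 (SE), adjusted p = 5.4e-05. Nr1d2 differed by -1.22, adjusted p = 0.000379, Nr1d1 by -1.47, adjusted p = 0.0248 and Cry1 by 0.75, adjusted p = 0.00398.

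Outside the clock list, Ypel2, a member of the yippee-like family, was at 5.67, 8.3 and 8.69 CPM and 10.6, 8.04 and 9.02 CPM after the ZT12 session, overlapping groups, and fell after the ZT0 session from 25.1, 25.6 and 22.2 CPM to 8.88, 8.9 and 10.1 CPM (1.68 ± 0.19 (SE), adjusted p = 0.000108). Zhx2, a zinc finger and homeobox repressor, went from 19.5, 23.1 and 20.8 CPM to 46, 46.7 and 41.7 CPM, while after the ZT0 session it was at 42.2, 49.9 and 49.95 CPM and 45.3, 50.8 and 54.6 CPM (1.00 ± 0.12 (SE), adjusted p = 0.000266). Slc16a9, a carrier of the monocarboxylate family, was at 7.83, 10.3 and 8.27 CPM and 12, 14.7 and 10.4 CPM, and at 18.2, 16 and 16.6 CPM and 7.16, 8.41 and 8.95 CPM after the ZT0 session (1.54, adjusted p = 0.00166). In each of these 3 genes the +0h libraries of the ZT0 session were all above those of the ZT12 session. Cerk, ceramide kinase (0.84, adjusted p = 0.00314), and Rhbdf2, an inactive rhomboid protein (0.82, adjusted p = 0.00375), lost their calls when only the 12 libraries of both sessions were fitted (adjusted p = 0.0523 and 0.0815). Among the programmes, Ppard (0.59, adjusted p = 0.049), Tek (0.51, adjusted p = 0.037), Pdp1 (-0.77, adjusted p = 0.00519) and Dnajb5 (-0.47, adjusted p = 0.0319) differed between sessions. Of lipogenic and sterol genes 12 of 27 fell after the ZT0 session (median -0.88), against 2 after the ZT12 session, and the difference passed the test for 1 of them. Adipocyte markers moved with this. The median log2 change of the 10 was -1.51 after the ZT0 session and the median difference between sessions was 1.72, with 1 raised and 0 lowered by edgeR after the ZT0 session. Their mean log2 CPM was 7.004, 4.60 and 7.48 in the +0h libraries of the ZT0 session and 5.16, 5.49 and 5.13 at +3h, so that replicates 1 and 3 of +0h stood highest. Their part in the lipogenic falls was not tested beyond a fit with the adipocyte score as a covariate. In that fit 1945 genes were called after the ZT0 session, and its values for the lipogenic genes are not given here.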

How the data were processed

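Messenger RNA of mouse muscle was sequenced from stranded libraries made from polyadenylated RNA, per the labels' protocols. The deposited table holds the authors' estimated counts, 23621 rows by gene ID, made with kallisto 0.46.2 after bcl2fastq 2.20.0.422, with GRCm38.p6, mm10 and DESeq2 1.26.0 also named, all per the submitters' processing notes; the annotation, the strand setting and the step from transcripts to genes are not given in the sources used here. Of the IDs, 23614 matched RefSeq, which gave symbols and GRCm38.p6 coordinates. Reads shared by overlapping or near-identical genes may be split between them.

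Counts of both lanes were added per library, then rounded. All 24 quadriceps libraries (8 groups of 3) were fitted together with edgeR 4.0.16 (limma 3.58.1, R 4.3.3): TMM scaling, a minimum count of 10 by filterByExpr, robust quasi-likelihood tests, Benjamini-Hochberg adjustment and a threshold of 0.05. The scripts were tested on simulated data. No 2 replicates agreed within sampling noise. Counts bound the precision by counting error only.

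Named genes were the 12 largest rises and 12 largest falls (average log2 CPM of at least 1, groups not overlapping), up to 4 of smallest p in each list, 8 of smallest p in each difference of changes, and Ppargc1a, Nr4a3, Pdk4, Fos, Hspa1b, Trim63, Arntl, Nr1d1, Dbp, Per1, Per2 and Cry1. Other list members, and the library values of genes outside this rule (Nr4a1, Thbs1, Mt1, Mt2, Npas2, Ciart, Bhlhe40, Pecam1, Kdr, Pax7 and S100a9), were chosen after their values were seen. A few genes that the rule names are not reported here. The groups, 30 programme lists and 12 marker lists (898 of 899 symbols matched) were chosen with earlier results of these data known. Alternatives were DESeq2 1.42.0, its size factors, no filter, a minimum of 50, the replicate number as a block, an adipocyte covariate, the libraries of a contrast alone, and each library left out.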

Additional observations from a re-analysis of the deposited data

Results flagged for a closer look

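In 8 genes the change from 0 to 3 h after the ZT12 session differed from the change between sedentary ZT12 and ZT16 with the smallest p-values of that test of the difference. The differences in log2 change were 3.17 for Ppargc1a, 3.05 for Tmem140 and 0.99 for Cltc, all more positive in recovery. They were -2.35 for Pde4b, -1.74 for Dynll1, -1.53 for Cdc42ep3, -1.53 for Bcar1 and -1.07 for Sphk2, all more negative in recovery. In another 8 genes the change from 0 to 3 h differed between the ZT12 and ZT0 sessions with the smallest p-values. The differences, ZT12 session minus ZT0 session, were -2.26 for Dbp, 2.36 for Arntl, 1.68 for Ypel2, 1.00 for Zhx2, -1.22 for Nr1d2, 1.54 for Slc16a9, 0.84 for Cerk and 0.82 for Rhbdf2. Their levels in each library and adjusted p-values are given with the comparisons. No group held more than 3 libraries, so single libraries were not examined for standing apart by a critical value.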

How the results depend on the processing

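The 2378 genes called from 0 to 3 h after the ZT12 session were 2360 with DESeq2's size factors, 2384 with a minimum count of 50, 2634 in DESeq2, 2537 with the adipocyte covariate, 1829 in a fit to the 6 libraries alone and 1661 to 2091 when 1 library was left out. The change beyond the passage of time ranged from 1269 to 1857 under those alternatives and from 1139 to 1591 when 1 library was left out. The sedentary change fell to 549 when only its own libraries were fitted and lay between 576 and 1416 when 1 was left out. Recovery after the ZT0 session fell to 654 and lay between 1390 and 2118 in the same ways. The difference between sessions gave 199 genes in DESeq2, 16 when only the 12 libraries were fitted and 27 to 153 when 1 library was left out. The smaller fits held fewer libraries, and why they gave fewer calls was not tested. Replicate numbers did not pair the +0h and +3h libraries (correlations of same-numbered deviations of -0.145, 0.246 and -0.043), and with the replicate block 2318 genes were called. Libraries did not all correlate best with their own number. Of 113 called genes among the 150 named, 83 kept their call and direction under every alternative run, and of 179 called members of the programme lists, 107 were called in every fit that leaves out a library. The sign of Nr1d1, not called in recovery (-0.10), turned to 0.156 without replicate 2 of +0h and to 0.073 without replicate 1 of +3h, within a range of -0.298 to 0.156 over the fits that leave out a library; the cause was not tested. Whether depth limited the calls was not tested. Values under 1 CPM, among them those of Lif, Npas2, Dusp2 and S100a9 at +0h and of Egr3 and Ptgs2 at +3h, rest on fewer counts.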
